A study of Homo sapiens with 7 samples.

Results

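The immunoglobulin lambda constant genes encode the constant part of the lambda light chain of antibodies, and IGLL5 is a gene of the same locus whose annotated exons include a lambda joining segment and constant gene. The 7 genes IGLC1, IGLC2, IGLC3, IGLC5, IGLC6, IGLC7 and IGLL5 were examined among 57189 genes listed in the count table. They were chosen by their place in the lambda locus and selected on results of the comparison of BV6 with untreated cells in these same samples. Their differences between BV6 and untreated samples are therefore a description, carry no test and support nothing.

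RNAseq counts were available for 7 samples of RH30, an established cell line of alveolar rhabdomyosarcoma (RMS), a tumor with features of skeletal muscle. The comparison addresses the transcriptional response to BV6, a bivalent Smac mimetic that antagonizes inhibitor of apoptosis proteins. The untreated group held 4 samples of RH30 cells, genotype wt, without BV6. The BV6 group held 3 samples of RH30 cells, genotype wt, exposed to 5 µM BV6 for 24 h. The study's methods describe RH30 cells that express a GFP and luciferase reporter, and the sample labels do not mention it. Replicates were numbered by a tag in the sample titles, so BV6 replicates 2, 3 and 4 share a tag with untreated replicates 2, 3 and 4, while no BV6 sample carries the tag of untreated replicate 1. The tags were BC11, BC13, BC14 and BC25/27 for replicates 1 to 4, and the last names more than 1 number. The labels do not say what the tag marks. Total counts were 77220882, 56684781, 59849682 and 62049652 in untreated replicates 1 to 4 and 57464589, 59465798 and 54070030 in BV6 replicates 2 to 4. Levels are given as CPM, counts scaled to a common, TMM-normalized library size. A gene was taken as detected above 3 counts, which is 0.0389 to 0.0557 CPM, and this floor covers counting error only. Each total is larger than the number of reads per library in the study's methods, so mates of a pair may have been counted separately. A count may then stand for less than a whole fragment, which was not tested.

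In B cells, a lambda light chain gene is assembled by joining a variable segment to a joining segment, and the transcript is spliced from the joining segment to the constant exon that follows it. The human locus holds several joining and constant pairs in a row, which arose by duplication and have remained very similar in sequence. Antibody light chains are products of the B lineage, and transcripts of unrearranged constant genes can also start upstream of a joining segment.

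In GENCODE release 44 on GRCh38, all 7 genes lie on the plus strand of chromosome 22. IGLL5 comes first, at 22887780 to 22896111, followed by IGLC1 at 22895375 to 22895834, IGLC2 at 22900976 to 22901437 and IGLC3 at 22906342 to 22906803. IGLC5 (22915635 to 22915927) and IGLC6 (22919535 to 22919851) are annotated as pseudogenes, and IGLC7 (22922594 to 22923034) closes the row. Each of the 6 constant genes is annotated as 1 exon. The first 150 bases of 5 of the constant exons are shown because their similarity bears on every comparison between the genes. They were read on the plus strand of GRCh38 at chr22:22900976-22901125 (IGLC2), chr22:22906342-22906491 (IGLC3), chr22:22895375-22895524 (IGLC1), chr22:22922594-22922743 (IGLC7) and chr22:22919535-22919684 (IGLC6), are exonic, and carry capitals where a base differs from IGLC2.
IGLC2: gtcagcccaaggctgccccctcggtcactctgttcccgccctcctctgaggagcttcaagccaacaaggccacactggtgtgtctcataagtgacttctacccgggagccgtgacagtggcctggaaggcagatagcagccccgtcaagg
IGLC3: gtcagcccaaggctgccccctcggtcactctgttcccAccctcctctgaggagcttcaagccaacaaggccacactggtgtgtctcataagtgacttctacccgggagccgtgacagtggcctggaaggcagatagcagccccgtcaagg
IGLC1: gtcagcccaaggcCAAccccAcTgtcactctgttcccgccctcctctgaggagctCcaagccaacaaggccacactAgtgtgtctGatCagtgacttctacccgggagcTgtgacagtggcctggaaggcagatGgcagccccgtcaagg
IGLC7: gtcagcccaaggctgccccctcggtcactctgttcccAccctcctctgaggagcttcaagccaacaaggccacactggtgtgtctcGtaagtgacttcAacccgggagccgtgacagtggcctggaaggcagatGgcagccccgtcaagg
IGLC6: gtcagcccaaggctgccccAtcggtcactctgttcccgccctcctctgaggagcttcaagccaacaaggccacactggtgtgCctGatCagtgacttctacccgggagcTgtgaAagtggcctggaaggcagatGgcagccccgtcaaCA
Over these bases IGLC3 differed from IGLC2 at 1 position, IGLC7 at 4, IGLC6 at 9 and IGLC1 at 11.

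Over the coding part with its stop codon, IGLC2 and IGLC3 were identical at 317 of 320 bases (99.06%). IGLC1 and IGLC2 were identical at 95.31% of aligned bases, and IGLC5, compared over its whole exon because pseudogenes have no annotated coding part, was the most distant, with 86.35% to 86.94% identity to the other constant genes. Of the 413 windows of 50 bases in the IGLC2 exon, 140 (33.9%) occurred at 1 place in the genome, and 240 were also present in IGLC3. For IGLC3 the share at 1 place was 32.93% of 413 windows, and for IGLC1 it was 77.86% of 411. The study sequenced short paired reads, and how reads with several equally good positions were counted is not given in the sources used here, so the split of counts between IGLC2 and IGLC3 is uncertain. A second source of shared reads is overlap. All 460 exonic bases of IGLC1 lie inside exons of IGLL5, where they make up 34.35% of its 1339 exonic bases, and 122 bases of the joining segment IGLJ1 (96.06%) lie inside IGLL5 as well.

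IGLC2 and IGLC3, which encode constant regions of common lambda chains, had the highest counts of the 7 genes. IGLC2 was measured at 161, 136, 150.1 and 124 CPM in untreated replicates 1 to 4 and at 91.3, 51.3 and 53.7 CPM in BV6 replicates 2 to 4. Every BV6 sample lay below every untreated sample, and BV6 replicate 2 stood above the other BV6 samples. The untreated mean was 143 ± 16.4 CPM (SD, n = 4) and the BV6 mean 65.4 ± 22.4 CPM (SD, n = 3). The log2 fold change was -1.12 (standard error 0.206). IGLC3 was measured at 110.1, 85.7, 103 and 86.5 CPM in untreated replicates 1 to 4 and at 62.4, 34.7 and 36.9 CPM in BV6 replicates 2 to 4. The groups did not overlap, and the order of the BV6 samples was that of IGLC2. Its log2 fold change was -1.11 (standard error 0.21). In bulk RNA, fewer cells that contain a transcript and less of it per cell cannot be told apart.

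IGLC1 lies inside IGLL5, so the same reads may stand on both genes. IGLC1 was measured at 11.1, 8.46, 8.73 and 7.55 CPM in untreated replicates 1 to 4 and at 5.68, 3.55 and 2.66 CPM in BV6 replicates 2 to 4. IGLL5, a gene related to the surrogate light chain of B cell precursors, was measured at 13.7, 10.7, 10.2 and 8.93 CPM in untreated replicates 1 to 4 and at 7.12, 4.09 and 3.06 CPM in BV6 replicates 2 to 4. In both genes the groups did not overlap, untreated replicate 1 was the highest and BV6 replicate 4 the lowest. The log2 fold change was -1.18 (standard error 0.262) for IGLC1 and -1.19 (standard error 0.283) for IGLL5. If every count of IGLC1 and IGLJ1 also stood on IGLL5, 85, 33, 16 and 20 IGLL5 counts remained in untreated replicates 1 to 4 and 18, 2 and 5 in BV6 replicates 2 to 4. This remainder was 0.797% to 8.03% of the IGLL5 counts, which is too low where a read that spans IGLJ1 and IGLC1 was counted on both, and the values of IGLL5 were not taken as a measurement independent of IGLC1.

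IGLC7, the last gene of the row, was measured at 1.103, 0.588, 1.28 and 1.12 CPM in untreated replicates 1 to 4 and at 0.427, 0.375 and 0.241 CPM in BV6 replicates 2 to 4. Its groups did not overlap, although untreated replicate 2 lay close to the BV6 samples. These levels rest on 33 to 85 counts in untreated samples and 13 to 24 in BV6 samples, and the log2 fold change was -1.55 (standard error 0.35).

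The pseudogenes IGLC5 and IGLC6 were also detected. IGLC6 was measured at 3.27, 3.05, 3.43 and 3.22 CPM in untreated replicates 1 to 4 and at 1.73, 0.734 and 1.11 CPM in BV6 replicates 2 to 4. IGLC5 ranged from 1.96 to 2.67 CPM in untreated samples and from 0.75 to 1.11 CPM in BV6 samples. The groups did not overlap in either pseudogene. Their log2 fold changes were -1.45 (standard error 0.277) for IGLC6 and -1.29 (standard error 0.23) for IGLC5. IGLC4, another constant pseudogene of the row, had at most 5 counts in a sample and was not among the genes tested.

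**Figure D1:**
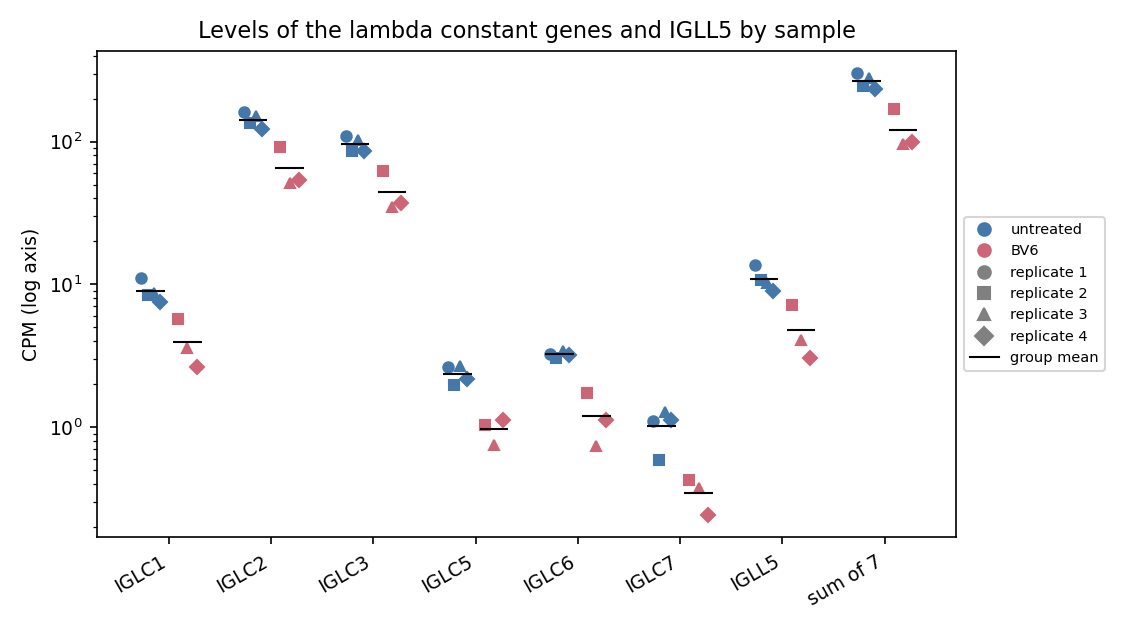
CPM on a log axis for each member and for the sum of the 7, with 1 point per sample, colors for the groups, symbols for the replicates and bars at the group means. In each gene the 3 BV6 samples sit below the 4 untreated samples.

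All 7 members passed the filter on low counts. By edgeR with Benjamini-Hochberg adjustment, 0 of the 7 had an adjusted p below 0.05, where 0.450% of the 23124 tested genes did in either direction and 0.0562% were lower in BV6. At an unadjusted p below 0.05, edgeR placed 7 of the 7 lower in BV6, beside 4.26% of all tested genes. The DESeq2 Wald test called 7 of the 7 lower, beside 0.783% of all tested genes. DESeq2 made more false calls than edgeR on simulated counts. These were drawn with the spread between samples that edgeR estimated and without a tag effect, so they cannot decide between the tools. With the tag as a block, edgeR called 1 of the 7 (IGLC2) lower, beside 0.294% of all tested genes, and on the 3 tags that hold both conditions 5 of the 7 (IGLC1, IGLC2, IGLC3, IGLC6 and IGLL5), beside 0.558%. Whether the tags pair the samples depended on how the check was made. Every BV6 sample was below every untreated sample for 7 of the 7, a pattern that 3.89% of all tested genes had. Because these genes were selected on this comparison, nothing is read from the counts. The members can also share reads, so they were not taken as separate observations. For a single gene, an exact two-sided permutation test of 4 against 3 samples cannot give a p below 0.0571.

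The 7 genes were also summed. Reads that were dropped, or counted on more than 1 member, would still bear on the sum. The sum was 303, 246, 279.6 and 233 CPM in untreated replicates 1 to 4 and 169.7, 95.5 and 98.8 CPM in BV6 replicates 2 to 4. The groups did not overlap. The untreated mean was 266 ± 31.8 CPM (SD, n = 4) and the BV6 mean 121 ± 41.9 CPM (SD, n = 3), so the BV6 mean was 45.7% of the untreated mean. The log2 fold change of the sum was -1.13 (standard error 0.207), beside a median of -0.01 over all tested genes.

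Among samples of the same tag, the sum in BV6 was 68.9% of untreated in replicate 2, 34.2% in replicate 3 and 42.4% in replicate 4. On the log2 scale these differences were -0.54, -1.55 and -1.24. The difference was smallest in replicate 2, also for IGLC2 (-0.57, against -1.55 and -1.20 in replicates 3 and 4) and IGLC1 (-0.58, against -1.30 and -1.51). Each of the 7 members was lower in BV6 for each of the 3 tags. The most negative difference of a member was -2.23, for IGLC6 in replicate 3.

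The shares of the members in the summed counts are a description of the table. Reads split between genes, or counted on more than 1, can keep shares alike however each gene moved. IGLC2 made up 53.2%, 55.2%, 53.7% and 53.03% of the sum in untreated replicates 1 to 4 and 53.8%, 53.7% and 54.3% in BV6 replicates 2 to 4. The 95% Clopper-Pearson intervals of single samples were narrow, for example 52.5% to 53.8% in untreated replicate 1 and 52.98% to 55.7% in BV6 replicate 4, and cover counting error only. The group means of 53.8% ± 0.971 (SD, n = 4) and 53.96% ± 0.326 (SD, n = 3) differed by less than the spread between samples. IGLC3 took 36.3% ± 1.04 of the sum over the untreated samples (SD, n = 4) and 36.8% ± 0.534 over those with BV6 (SD, n = 3). IGLC2 and IGLC3 together held 89.5% to 91.7% of the counts in every sample. Of the counts on this pair alone, IGLC2 took 59.4%, 61.3%, 59.2% and 58.8% in untreated replicates 1 to 4 and 59.4%, 59.7% and 59.2% in BV6 replicates 2 to 4. The groups overlapped, and untreated replicate 2 held the highest value.

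IGLL5 held 4.08% ± 0.42 of the summed counts over the untreated samples (SD, n = 4) and 3.86% ± 0.659 over those with BV6 (SD, n = 3). IGLC1 held 3.37% ± 0.24 over the untreated samples (SD, n = 4) and 3.25% ± 0.523 over those with BV6 (SD, n = 3). Between samples of the same tag the share of IGLC1 differed by -0.0878, 0.6 and -0.552 percentage points in replicates 2, 3 and 4, and that of IGLL5 by -0.135, 0.653 and -0.728. The sign was the same for both genes at each tag and was not the same over the 3 tags. IGLC6 held 1.23% ± 0.123 over the untreated samples (SD, n = 4) and 0.971% ± 0.184 over those with BV6 (SD, n = 3). Its share was lower in BV6 at each tag, with differences of -0.219, -0.46 and -0.253 percentage points, while the ranges of the groups overlapped. IGLC5 held 0.888% and 0.841% and IGLC7 0.385% and 0.296% of the sum as means of the untreated and BV6 samples. For all 7 members the ranges of the shares overlapped between groups. The summed level did not overlap, but the members were selected on that contrast, so nothing is read from setting it beside the shares.

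**Figure D2:**
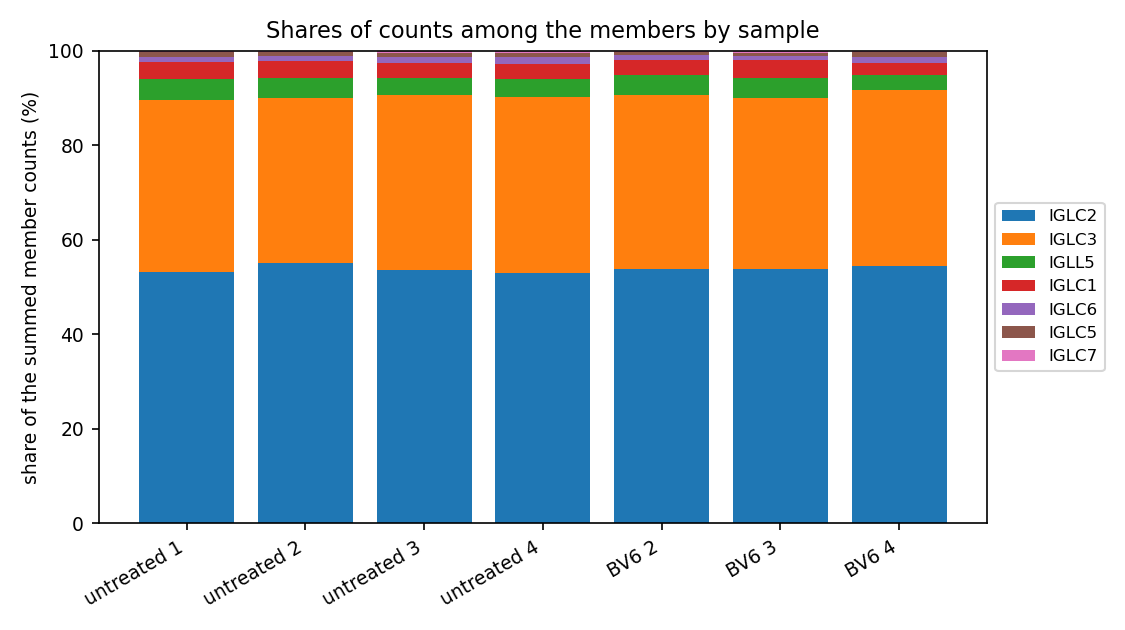
Stacked bars of each member's share of the summed member counts, in percent, for the 7 samples. IGLC2 and IGLC3 fill 89.5% to 91.7% of each bar.

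Levels of different genes were compared per kb of annotated exons. In untreated samples IGLC2 had the highest level, 309 ± 35.6 CPM per kb (SD, n = 4), followed by IGLC3 with 209 ± 26.4. IGLC1 came next with 19.5 ± 3.31 CPM per kb, so the step from IGLC3 to IGLC1 was 10.7-fold. The values of these 3 genes did not overlap with those of the gene next in order. IGLC6 (10.2 ± 0.505 CPM per kb), IGLL5 (8.12 ± 1.53) and IGLC5 (8.05 ± 1.18) followed, and each overlapped with the next of the 3. The place of IGLL5 is not a level of its own, since most of its counts may be reads of IGLC1 and IGLJ1. IGLC7 was lowest, at 2.32 ± 0.679 CPM per kb, and did not overlap with IGLC5.

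The joining segments IGLJ1, IGLJ2 and IGLJ3 precede IGLC1, IGLC2 and IGLC3. All of their 50-base windows occurred at 1 place in the genome, so they bear on the constant genes without the similarity of the constant exons. IGLJ2 was measured at 58.3, 46.4, 54.8 and 45.5 CPM in untreated replicates 1 to 4 and at 32.4, 15.3 and 19.5 CPM in BV6 replicates 2 to 4, with no overlap. Per kb, the level of IGLJ2 was 0.785 to 0.973 times that of IGLC2 in the 7 samples. The level of IGLJ3 per kb was 0.275 to 0.29 times that of IGLC3. In IGLJ2 and IGLJ3 the groups did not overlap, with log2 fold changes of -1.20 (standard error 0.238) and -1.10 (standard error 0.229), and in IGLJ1 they did, with -1.04 (standard error 0.4). These segments were outside the selection by name, but reads that span a joining segment and its constant exon can count on both, so they are no independent check of the constant genes.

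**Figure D3:**
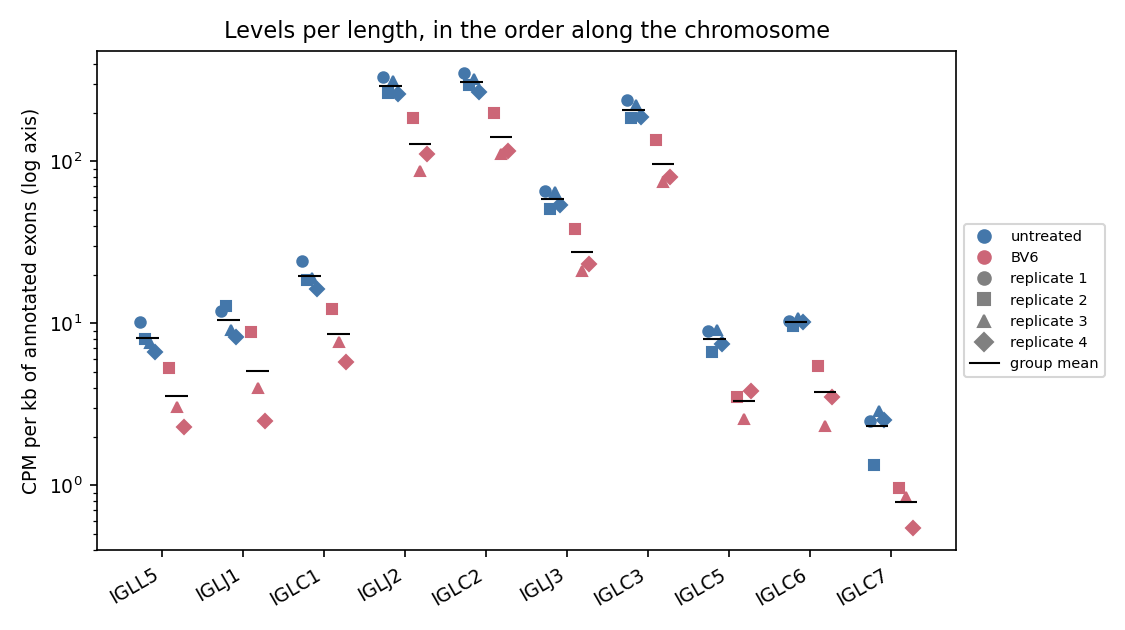
CPM per kb of annotated exons on a log axis for the members and 3 joining segments, in their order along the chromosome, with 1 point per sample and bars at group means. IGLJ2 and IGLC2 stand at similar height, while IGLJ3 lies below IGLC3.

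Of 407 other immunoglobulin rows, 114 had 0 counts in every sample and 229 had at most 3 counts in every sample. By edgeR, 0 of the 15 that were tested were called, 6 had an unadjusted p below 0.05 and DESeq2 called 2. The lambda locus held 8 of the 15, 5 of the 6 and the 2 called by DESeq2. Its joining segments, which can share reads with the members, held 3 of the 6 and the 2 called by DESeq2. Over all tested genes, 8.39% had an unadjusted p below 0.05, DESeq2 called 1.93% and 52.3% had a negative log2 fold change, and the counts given here and for the marker lists stand beside these shares. Of the 15, edgeR with the tag as a block called 0 on all 7 samples, and 1, IGLJ2, on the 3 tags that hold both conditions. Over all genes, these block fits called 218 of 23124 and 341 of 22746 in either direction, and 68 and 127 lower in BV6. The block counts for the marker lists and neighbours stand beside these numbers. In the lambda locus, 5 of 76 variable segments were tested. The summed level of all 76 was 3.79 to 6.26 CPM in untreated and 4.15 to 4.63 CPM in BV6 samples. The 7 members had 95.5 to 303 CPM over the 7 samples. Of the 5 tested segments, 4 had a negative log2 fold change and the median was -1.08. Among them edgeR called 0, 2 had an unadjusted p below 0.05 and DESeq2 called 0. The variable segment with the most counts, IGLV5-52, had 2.07 ± 0.328 CPM over the untreated samples (SD, n = 4) and 2.33 ± 0.252 CPM over those with BV6 (SD, n = 3), with overlapping groups and a log2 fold change of 0.17. In the kappa locus, the constant gene IGKC was at 0.433 ± 0.182 CPM over the untreated samples (SD, n = 4) and 0.741 ± 0.387 CPM over those with BV6 (SD, n = 3). Its groups overlapped, and its log2 fold change was 0.77 (standard error 0.437). The other kappa rows named by the rule, IGKV1OR2-108 and IGKV1OR1-1, had 45 and 36 counts over all 7 samples. In the heavy chain locus, IGHA1, IGHG1 and IGHM had the most counts, and their groups overlapped. Their untreated means were 0.456, 0.474 and 0.244 CPM, and their BV6 means 0.667, 0.576 and 0.276 CPM. Of 6 heavy chain rows tested, 1 had a negative log2 fold change, and the median was 0.41. Over all 15 tested immunoglobulin rows outside the members, 8 were negative and the median was -0.07.

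Markers were compared to check the labelled cell type. Among 19 markers of alveolar RMS and myogenic cells, 16 were tested and 0 were called by edgeR, with 4 at an unadjusted p below 0.05 and 1 called by DESeq2. With the tag as a block edgeR called 1, CHRND, on all 7 samples (log2 fold change -0.64) and on the 3 tags alone (-0.64). The median log2 fold change of the list was -0.30, and 13 of the 16 were negative. Their summed level was 4634, 3529.9, 4025 and 4519 CPM in untreated replicates 1 to 4 and 2942, 2888 and 4340.0 CPM in BV6 replicates 2 to 4, so it was lower in BV6 at each tag, as the members were, with overlapping groups, and its part in their difference was not tested. ACTC1, DES and FGFR4 led the list, and MYF6 was close to the floor with 15 counts over the 7 samples. Among 28 markers of B-lineage and plasma cells, 12 were tested and 0 were called by edgeR, also with the tag as a block, with 1 at an unadjusted p below 0.05 and 1 called by DESeq2. Their median log2 fold change was 0.05. Their summed level was 41.3 to 61.5 CPM, mostly from SDC1, which is also made by non-immune cells, followed by TNFRSF13C and EBF1. Over the 7 samples, SDC1, TNFRSF13C and EBF1 had 15121, 2573 and 1504 counts. The B cell surface markers MS4A1 and CD79A had 33 and 69, and JCHAIN, MZB1 and TNFRSF17 of plasma cells had 16, 24 and 10. None of these low markers was among the 12 tested, and most of the 12 are not named here. The part of B-lineage cells in the counts of the members was not tested. Markers named here beyond the most abundant were chosen after their values were seen. Among 18 markers of other leukocytes, 13 were tested and 0 were called by edgeR, with 1 at an unadjusted p below 0.05 and 1 called by DESeq2. With the tag as a block edgeR called 1, LAPTM5, on all 7 samples (log2 fold change -0.66) and on the 3 tags alone (-0.65). The median log2 fold change of the list was -0.08, and its most abundant genes were LAPTM5, CORO1A and CSF1R. Their summed level was 159, 156, 128 and 141 CPM in untreated replicates 1 to 4 and 109.6, 74.5 and 123 CPM in BV6 replicates 2 to 4, largely from LAPTM5, so it was lower in BV6 as the members were, and its part in their difference was not tested. CD3D and CD3G had 13 and 9 counts over the 7 samples, while PTPRC, another leukocyte marker, had 183. For PTPRC the groups overlapped, and BV6 over untreated was 0.28 on the log2 scale (standard error 0.56).

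Of 26 transcription factors linked to immunoglobulin light chain genes, 23 were tested. Of the 23, edgeR called 1, 4 had an unadjusted p below 0.05 and DESeq2 called 1. The shares over all tested genes were 0.450%, 8.39% and 1.93%. NFKB2 was called higher, at 77.4 ± 16.1 CPM over the untreated samples (SD, n = 4) and 246 ± 61.0 CPM over those with BV6 (SD, n = 3). Its log2 fold change was 1.67, with a standard error of 0.207 and a Benjamini-Hochberg adjusted p of 0.011 in edgeR, and all 3 BV6 samples were above the untreated samples. Without untreated replicate 4 NFKB2 lost its call. With the tag as a block edgeR called 3 of the list higher, NFKB1, NFKB2 and RELB, both on all 7 samples and on the 3 tags alone. Over all genes, these fits called 218 of 23124 and 341 of 22746, of which 68 and 127 were lower in BV6. The most abundant factors of the list were TCF12, NFKB2 and TCF3, and the median log2 fold change of the list was 0.03. BIRC3, CCL5 and NFKBIA, read as a check of the treatment, were higher in every BV6 sample than in every untreated sample. The log2 fold change was 4.86 for BIRC3 and 2.17 for NFKBIA. CCL5 had 6, 9, 6 and 4 counts in untreated replicates 1 to 4, close to the floor, and 92, 160 and 201 in BV6 replicates 2 to 4.

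The members were set beside their neighbours on chromosome 22. Of 42 annotated genes outside the immunoglobulin loci that start within 500 kb of the row, 19 were matched by symbol and 10 were tested. By edgeR 0 were called, with 5 lower at an unadjusted p below 0.05, beside 4.26% of all tested genes, and 4 called lower by DESeq2, beside 0.783%. With the tag as a block edgeR called 1 lower, GNAZ, on all 7 samples, and 3, BCR, FBXW4P1 and GNAZ, on the 3 tags alone. The median log2 fold change was -0.78. A negative value was found for 8 of the 10, and in 4 of the 10, BCR, ASH2LP1, RN7SL263P and FBXW4P1, every BV6 sample was below every untreated sample, as for 3.89% of all tested genes. RN7SL263P and FBXW4P1 lie inside BCR, and GNAZ inside RSPH14, so these genes may share reads and were not taken as separate observations. ASH2LP1 had 5, 1 and 2 counts in BV6 replicates 2 to 4 and RN7SL263P 5, 5 and 7, at or close to the floor, so no fold change is given for them. FBXW4P1 had a log2 fold change of -1.83 (standard error 0.506), from 75 to 392 counts in untreated samples and 34 to 68 in BV6 samples. BCR, 292 kb from the start of IGLL5, was the most abundant, with 125, 82.1, 108 and 106 CPM in untreated replicates 1 to 4 and 46.0, 49.4 and 80.1 CPM in BV6 replicates 2 to 4. Its groups did not overlap, and its log2 fold change of -0.85 (standard error 0.212) did not pass the edgeR test, at a Benjamini-Hochberg adjusted p of 0.197. Between samples of the same tag BCR differed by -0.84, -1.13 and -0.40 on the log2 scale in replicates 2, 3 and 4. GNAZ, 183 kb away, had a log2 fold change of -0.99 (standard error 0.283) with overlapping groups.

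**Figure D4:**
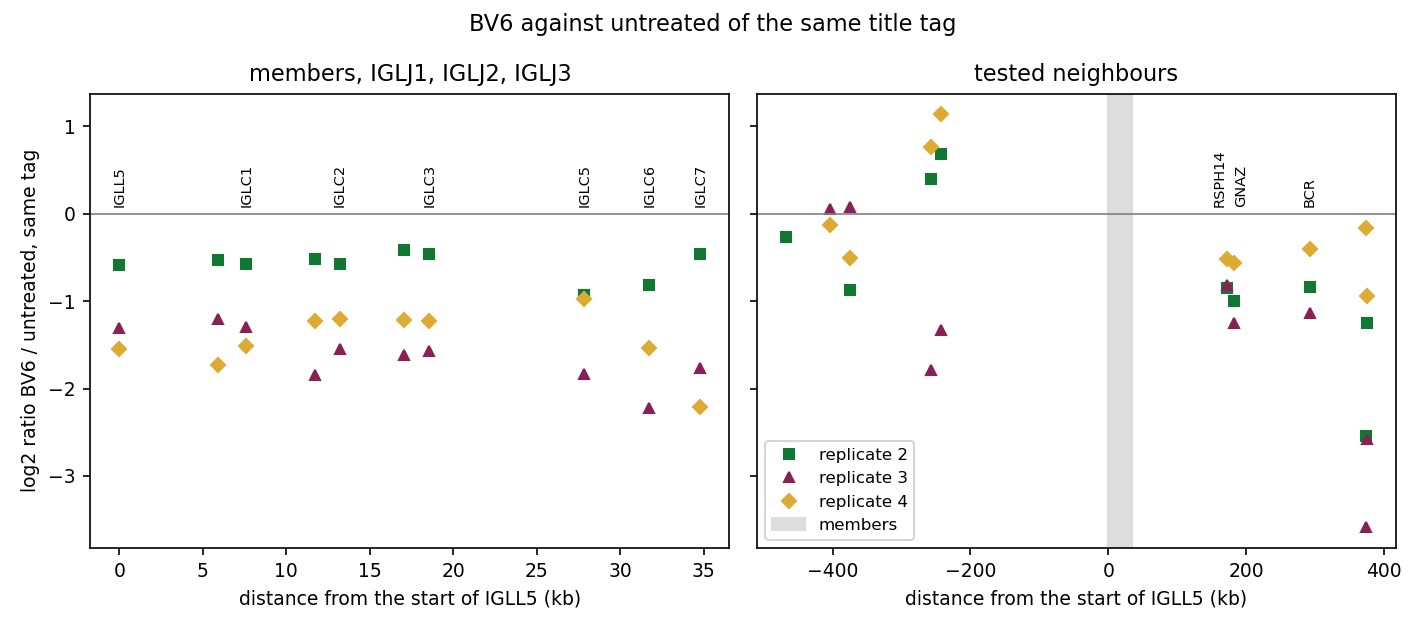
Log2 ratio of BV6 to untreated CPM between samples of the same tag against distance from the start of IGLL5 in kb, for the members and joining segments (left) and the tested neighbours (right), with 1 symbol per tag and no point where a sample had at most 3 counts. All ratios of the members are below 0, while neighbours before IGLL5 lie on both sides of 0 and those after the row lie below it.

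The 5 tested genes outside the immunoglobulin loci whose log2 CPM followed that of the summed members most closely over the 7 samples were FGF7P6 (Pearson r = 0.985), SHMT1 (0.983), IFITM1 (0.983), NOTCH4 (0.981) and LLPH-DT (0.98). They were taken from the top of a ranking of all tested genes, and the samples fall into treated and untreated, so these values describe the ranking only. Taken as deviations from the group means, r was 0.899 (LLPH-DT) to 0.962 (SHMT1), in genes that the same ranking had picked. Their log2 fold changes, from -0.83 for LLPH-DT to -0.16 for SHMT1, were smaller than that of the sum, and their Benjamini-Hochberg adjusted p in edgeR was 0.557 to 0.7.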

How the data were processed

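The authors sequenced stranded paired-end libraries of poly(A) RNA from RH30 cells. They mapped reads to GRCh38 with STAR 2.6.1d, counted them per Ensembl gene with a union model of isoforms, and the authors deposited raw counts. The handling of multi-mapping and overlapping reads is not given in the sources used here. Fold changes came from the quasi-likelihood test of edgeR 4.0.16 under R 4.3.3, with condition as the only term, after filterByExpr (minimum 10 counts) and TMM. P-values were adjusted by Benjamini-Hochberg over 23124 genes, and DESeq2 1.42.0 was an alternative. Standard errors were derived from the fold change and its F statistic. The fits were tested on counts simulated with the spread between samples that edgeR estimated and without a tag effect. DESeq2 exceeded the limit on false calls set for all tools, and a wider limit was then used for it alone. Annotation was GENCODE release 44, matched by symbol. Named genes were the members, the 3 immunoglobulin rows with most counts per locus, called genes and the 3 most abundant genes of 4 lists (B-lineage and plasma cell, other leukocyte, and alveolar RMS and myogenic markers, and light chain transcription factors), neighbours within 500 kb, the 5 genes most like the sum, and BIRC3, CCL5 and NFKBIA. Other cell type markers were named from the lists after their values were seen. Members and lists were chosen with earlier results of these data known. Alternatives were DESeq2, RLE factors, no filter, a replicate block and leaving out each sample.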

Additional observations from a re-analysis of the deposited data

Results flagged for a closer look

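Among 55 sets of 4 untreated values checked, 5 held a sample far from the other 3 by Dixon's criterion, and chance flags about 1 in 20. None was a member. In untreated replicate 4, ACTC1 stood at 1357 CPM and ZNF280A at 0.841 CPM, above the other untreated samples. In untreated replicate 1, FGFR4 stood at 933 CPM, PTPRC at 0.753 CPM and GGTLC2 at 2.62 CPM, above the others.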

How the results depend on the processing

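The log2 fold changes of the 7 members and of their sum were negative in all 97 refits under other settings, between -1.81 and -0.95. The members were selected on this contrast, so neither this direction nor a pass of the threshold is support. The sum was -1.13 in the chosen edgeR fit, and it fell on the other side of the threshold with DESeq2 (-1.14), without the filter on low counts (-1.14), without BV6 replicate 2 (-1.44) and with the replicate block on all samples or on the 3 tags alone (-1.11 in both). Leaving out single samples gave -1.44 to -0.98. The cause of these shifts was not tested, except that the leave-out fits hold fewer samples. Members called numbered 0 in the chosen fit, 7 with DESeq2, 6 without the filter, and 0 to 4 with a sample left out, the 4 without BV6 replicate 2.

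Over all genes, 104 were called, 447 by DESeq2, and 242 without the filter. Leaving out 1 sample gave 41, 65, 38 and 44 (untreated replicates 1 to 4) and 57, 89 and 53 (BV6 replicates 2 to 4). DESeq2 failed the limit on false calls first set for the simulated counts, so its larger numbers are not read as stronger evidence. The simulation used the spread that edgeR estimated and cannot decide between the tools. Among other immunoglobulin genes, lists and neighbours together, 1 gene was called, 10 with DESeq2, 9 without the filter and 0 (without untreated replicate 4, where NFKB2 lost its call) to 3 (without BV6 replicate 2) with a sample left out.

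With the replicate number as a block, 218 genes were called, of which 1 was a member, and 6 in the other groups of genes. On the 3 tags that hold both conditions, these numbers were 341, 5 and 9. Samples of the same tag deviated from their group means with correlations across genes of 0.462, 0.438 and 0.0847 for replicates 2, 3 and 4, and untreated replicate 4 correlated more with BV6 replicate 3 (0.261). With group means over these 3 tags alone, a definition added after seeing the data, these correlations were 0.515, 0.322 and 0.197, and each sample correlated best with its own tag. The limit for pairing, over 0.1 in every pair, was thus missed with the first definition and met with the second, and the labels do not say what the tag marks.

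Without IGLL5 in the sum, the share of IGLC2 was 56.1% in both groups and that of IGLC3 37.8% in untreated and 38.3% in BV6 samples, because the sum is smaller. With counts divided by exon length, the BV6 shares were 54.8% and 37.4%, and the untreated and BV6 shares were 1.43% and 1.35% for IGLL5, 1.42% and 1.34% for IGLC5 and 1.82% and 1.44% for IGLC6. With a sample left out, the order of levels per length was kept for 5 or 7 of the 7 members. In untreated replicate 1, 1942 genes had 1 count and 3211 had 2, so mates of a pair may have been counted separately, which was not tested and would make the binomial intervals too narrow.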
